A study of Mus musculus with 6 samples.

Results

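The 10 genes described here encode proteins that travel with the digestive enzymes of the pancreatic acinar cell without being among the main enzymes: *Zg16*, *Gp2* and *Sycn* of the zymogen granule, the secreted products *Rnase1*, *Reg1* and *Klk1*, the protease inhibitors *Spink1* and *Serpini2*, and *Tmed6* and *Erp27* of the early secretory pathway. They were taken by symbol from a given list, and all 10 were found among the 37224 genes of the count table. The list had been named as non-protease, but *Klk1* encodes tissue kallikrein, which is itself a serine protease. RNA was sequenced from the whole pancreas of wild type mouse embryos of strain C57/Bl6J at 13.5 and 15.5 days post coitum (dpc). Each stage had 3 independent samples, each a pool of pancreata from up to 3 embryos, and no other stage or genotype was analysed here. The question was how these genes differed between the 2 ages, which span the secondary transition, when acinar cells differentiate.

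Acinar cells make digestive enzymes as inactive precursors, fold them in the endoplasmic reticulum, pass them through the Golgi and store them in zymogen granules, which fuse with the apical membrane when the cell is stimulated. The granule membrane carries proteins such as GP2, ZG16 and syncollin, and the granule content includes inhibitors that restrain trypsin activated too early. Tmed proteins are cargo receptors of the vesicles between endoplasmic reticulum and Golgi, and protein disulphide isomerases help secreted proteins to fold.

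The total counts were 12895732 to 16389237 per sample at 13.5 dpc and 10546028 to 12491550 at 15.5 dpc. All pairs of samples of a stage differed by more than sampling noise, with a chi-square statistic per gene from 1.57 (13.5 dpc samples 1 and 2) to 59.8 (15.5 dpc samples 1 and 2). Between those 2 samples, shorter genes were relatively higher in sample 1 (Spearman rho of the log2 difference with exon length -0.59, across 15578 genes that are no independent replicates). Counts are given below as normalised counts, scaled by TMM (trimmed mean of M values) to a library of 12636988. The labelled tissue bore its markers, since all 7 genes of the pancreas marker list were detected at both stages. The summed epithelial markers (5 genes) lay at 19959 to 21128 normalised counts at 13.5 dpc and 28268 to 37226 at 15.5 dpc. The erythroid sum (6 genes) lay at 13029 to 14661 and 15612 to 43916, highest in 15.5 dpc sample 1. The part of either in the results below was not tested. The mesenchymal, endothelial, liver and spleen sums overlapped between stages, and the macrophage sum was lower, at 1242 to 1453 against 1738 to 1786. The intestine markers, 5 of 9 of which had at most 10 counts in any sample, summed to 195 to 215 and 377 to 537, most of each sum from *Vil1*. The stomach markers, with 3 of 8 at a count of 0 throughout, summed to 25.1 to 35.5 and 92 to 293, most of the 15.5 dpc sum from *Tff2*.

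All 10 genes were higher at 15.5 dpc than at 13.5 dpc, with log2 fold changes from 2.45 (*Serpini2*) to 7.67 (*Zg16*) and a median of 3.65, against -0.01 over the 15578 genes tested. The median was 2.56 over the 6 genes with at least 10 counts in every sample. All 10 passed the low-count filter and were called at an adjusted p at or below 0.05 (edgeR quasi-likelihood test, Benjamini-Hochberg over all genes tested), where 11.6% of the genes tested were called higher and 10.7% lower. In all 10, each 15.5 dpc sample lay above each 13.5 dpc sample, as it did for 22.8% of the genes tested. By the thresholds of the study's methods, which ask for more than 100 normalised counts in either stage, a fold change above 1.6 and an adjusted p at or below 0.1, 9 of the 10 were higher, against 5.82% of the genes tested, and *Gp2* was below the level asked for. Only protein-coding genes were counted by these thresholds, as a share of all 15578 genes tested. *Zg16*, *Gp2*, *Rnase1* and *Klk1* had at most 10 counts in every 13.5 dpc sample and passed the low-count filter through their 15.5 dpc counts. In whole pancreas, more acinar cells and more RNA per acinar cell cannot be told apart.

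**Figure D1:**
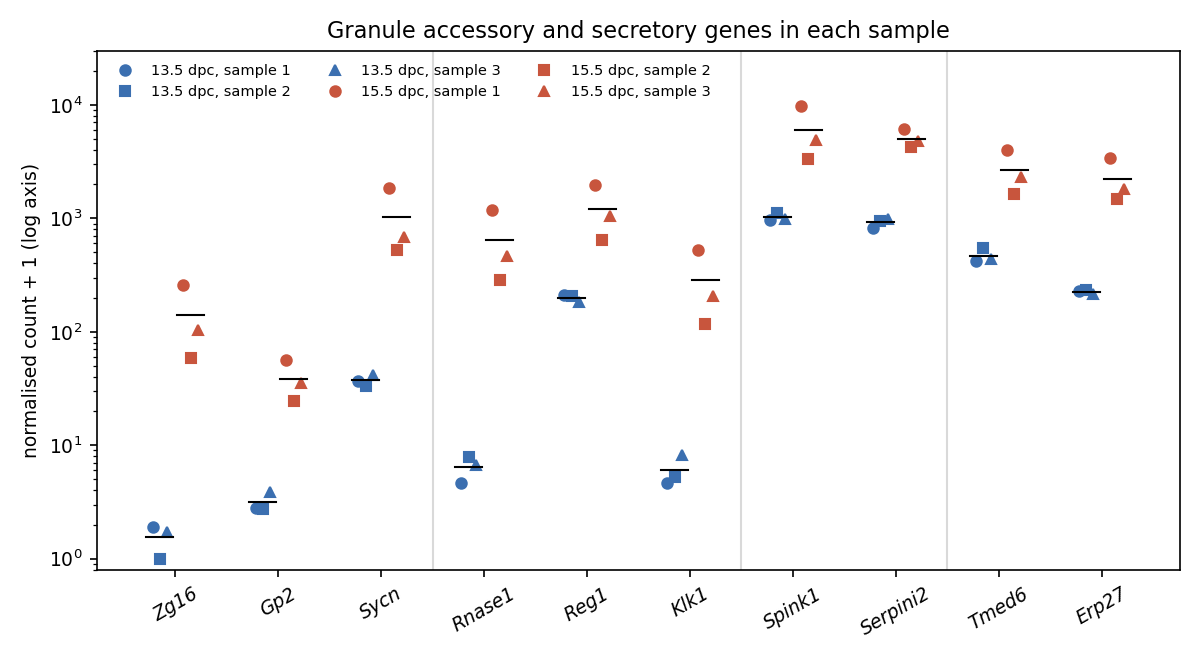
Normalised count plus 1 (log axis) of the 10 genes in each of the 6 samples, grouped from left to right as granule membrane and matrix, secreted products, protease inhibitors and early secretory pathway. Points are samples, black lines stage means (n = 3); in every gene the 3 samples of 15.5 dpc lie above those of 13.5 dpc, and sample 1 is the highest of 15.5 dpc.

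To show the sequences before the starts of these genes, the 250 bases upstream of the annotated start were read from the RefSeq promoter table (GRCm38.p6), which held 7 of the 10 genes. *Zg16*, *Spink1* and *Erp27* were not among them. Of the 7, 4 are printed, those of *Gp2* and *Reg1*, which hold a TATAAA close to the start, and those of *Sycn* and *Rnase1*, whose rises were among the larger ones. They run 5′ to 3′ on the strand of the gene, with matches to the searched motifs in capitals. The positions are chr7:119459273-119459522, minus strand, for *Gp2*, chr6:78425733-78425982, plus strand, for *Reg1*, chr7:28540635-28540884, plus strand, for *Sycn*, and chr14:51146768-51147017, minus strand, for *Rnase1*.
Gp2: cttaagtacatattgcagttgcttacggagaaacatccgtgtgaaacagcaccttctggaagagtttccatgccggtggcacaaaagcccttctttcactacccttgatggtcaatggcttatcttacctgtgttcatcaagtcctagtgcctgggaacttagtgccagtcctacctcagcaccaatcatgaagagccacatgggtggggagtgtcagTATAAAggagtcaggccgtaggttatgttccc
Reg1: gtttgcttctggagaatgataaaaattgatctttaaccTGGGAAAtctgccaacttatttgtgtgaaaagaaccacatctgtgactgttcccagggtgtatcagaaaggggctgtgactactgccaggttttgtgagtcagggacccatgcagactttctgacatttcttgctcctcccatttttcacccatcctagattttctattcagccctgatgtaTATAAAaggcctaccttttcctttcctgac
Sycn: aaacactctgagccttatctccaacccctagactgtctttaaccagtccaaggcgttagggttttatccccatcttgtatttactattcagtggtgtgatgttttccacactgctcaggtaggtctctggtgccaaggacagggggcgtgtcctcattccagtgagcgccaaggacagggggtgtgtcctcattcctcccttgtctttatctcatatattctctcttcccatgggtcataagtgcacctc
Rnase1: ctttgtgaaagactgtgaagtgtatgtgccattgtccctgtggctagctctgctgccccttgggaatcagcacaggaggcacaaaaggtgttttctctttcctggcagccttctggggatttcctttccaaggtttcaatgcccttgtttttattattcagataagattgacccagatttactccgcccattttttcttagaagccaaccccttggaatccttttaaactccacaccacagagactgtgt

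The motifs searched on both strands were the E-boxes CAGCTG and CACCTG, the longer sequences TTTCCCA and AAGGTCA, and the TATA element TATAAA, none of them contained in another. TATAAA stood at bases -32 to -27 of *Gp2* and -30 to -25 of *Reg1*, counted from the first transcribed base, and in the reverse orientation at -244 to -239 of *Serpini2*. It was found in 12.4% of the 32851 upstream stretches of this length in the table. TTTCCCA was found in reverse orientation in *Reg1* alone of the 7 (6.82% of all stretches), at -212 to -206. CACCTG was found in *Klk1*, *Tmed6* and *Serpini2* (17.2% of all), in *Tmed6* at 2 places, AAGGTCA in *Klk1* alone (4.08% of all), and CAGCTG in none of the 7 (13% of all). None of the 5 was found in the stretches of *Sycn* and *Rnase1*, which says only that these letters are not in these windows. A match is a description of the sequence, and binding was not measured. The start of *Klk1* in the promoter table lies upstream of the start in the annotation used for the counts.

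*Zg16* (ENSMUSG00000049350, chr7:127050156-127051977, minus strand, 3 exons, mm10) encodes a lectin-like protein attached to the inner face of the granule membrane. It had 1, 0 and 1 counts in samples 1, 2 and 3 of 13.5 dpc and 185, 56 and 81 at 15.5 dpc, or 256, 57.3 and 102 normalised counts at the later stage. The 0 in 13.5 dpc sample 2 allows a level of up to 0.22 counts per 1000000 (3 counts of the total). The ratio of summed counts, corrected for library size, was 236, with an exact 95% counting interval from 64.8 to 1957, which covers counting error only. The log2 fold change was 7.67 (SE 0.98, adjusted p = 0.00259, edgeR), and 6.89 without 15.5 dpc sample 1. With 2 counts in all at 13.5 dpc, the size of this change is only loosely fixed.

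*Gp2* (ENSMUSG00000030954, chr7:119442544-119459272, minus strand, 11 exons) encodes the main glycoprotein of the granule membrane, held there by a lipid anchor. It was the lowest of the 10 at 15.5 dpc, at 40, 23 and 27 counts, against 2, 2 and 4 at 13.5 dpc. The normalised counts were 1.82, 1.71 and 2.87 at 13.5 dpc against 55.4, 23.5 and 34 at 15.5 dpc, without overlap. This gave a log2 fold change of 4.0 (SE 0.48, adjusted p = 0.00211, edgeR), and the ratio of summed counts was 16.5 (counting interval 8.02 to 39.4).

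*Sycn* (ENSMUSG00000084174, chr7:28540885-28542210, plus strand, 2 exons) encodes syncollin, which binds the inside of the granule membrane and takes part in exocytosis. Its normalised counts were 35.5, 32.6 and 40.9 at 13.5 dpc against 1864, 523 and 680.0 at 15.5 dpc. The 13.5 dpc samples lay close together (coefficient of variation 11.7%), whereas 15.5 dpc sample 1 was 3.57 times as high as sample 2. The log2 fold change was 4.80 (SE 0.55, adjusted p = 0.00164, edgeR), and 4.03 without 15.5 dpc sample 1. Of the 3 genes of the granule membrane and matrix, *Sycn* was thus the only one above 10 counts in every 13.5 dpc sample.

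Among the secreted products, *Rnase1* (ENSMUSG00000035896, chr14:51145002-51146767, minus strand, 2 exons), the pancreatic ribonuclease, went from near the floor to a level like that of *Erp27* per length. It had 4, 8 and 8 counts at 13.5 dpc against 859, 281 and 369 at 15.5 dpc, or 3.64, 6.86 and 5.75 normalised counts at the earlier stage and 1189, 287 and 465 at the later. All 15.5 dpc samples lay far above those of 13.5 dpc, with sample 1 highest. The log2 fold change was 6.85 (SE 0.72, adjusted p = 0.0013, edgeR), and 6.07 without 15.5 dpc sample 1. The ratio of summed counts was 111 (counting interval 71.3 to 182).

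*Reg1* (ENSMUSG00000059654, chr6:78425983-78428666, plus strand, 6 exons) encodes a secreted C-type lectin of pancreatic juice. It was already expressed at 13.5 dpc, at 209, 205 and 183 normalised counts, and reached 1969, 640.1 and 1041 at 15.5 dpc. The stages did not overlap, and the spread among the 15.5 dpc samples was wide, with sample 1 at 3.08 times sample 2. Its log2 fold change was 2.61 (SE 0.39, adjusted p = 0.00435, edgeR). Of the 50-base windows of its transcripts, 3.65% were shared with other genes.

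*Klk1* (ENSMUSG00000063903, chr7:44225437-44229617, plus strand, 5 exons) encodes tissue kallikrein, which releases kinins from kininogen. It had 4, 5 and 10 counts at 13.5 dpc against 383, 113 and 165 at 15.5 dpc, or 3.64, 4.29 and 7.18 normalised counts at the earlier stage and 530.0, 116 and 208 at the later. Its log2 fold change was 5.73 (SE 0.74, adjusted p = 0.00259, edgeR), 4.92 without 15.5 dpc sample 1, and the ratio of summed counts was 51 (counting interval 32.4 to 85.2). Its level is uncertain, since 24% of its 50-base windows are shared with other genes and only uniquely aligned reads were counted. The 5 genes with the most matches were *Klk1b5*, *Klk1b3*, *Klk1b4*, *Klk1b21* and *Klk1b24*, and further genes may share windows. Among these relatives, *Klk1b3* had 7, 7 and 7 counts at 13.5 dpc against 94, 49 and 49 at 15.5 dpc, and the other 4 had at most 17 in any sample.

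The inhibitors *Spink1* and *Serpini2* had the highest mean level of the 10 genes at both stages, in normalised counts and per exon length. *Spink1* (ENSMUSG00000024503, chr18:43728069-43737237, minus strand, 4 exons) encodes the pancreatic secretory trypsin inhibitor. It had 967, 1105 and 991 normalised counts at 13.5 dpc against 9679, 3364 and 4881 at 15.5 dpc, a log2 fold change of 2.55 (SE 0.37, adjusted p = 0.00391, edgeR). Its 13.5 dpc samples had a coefficient of variation of 7.25%, and its lowest 15.5 dpc sample, sample 2, was far above all of them.

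*Serpini2* (ENSMUSG00000034139, chr3:75242370-75270078, minus strand, 9 exons) encodes pancpin, a serpin made in acinar cells. It had 825, 947 and 986 normalised counts at 13.5 dpc against 6100, 4215 and 4794 at 15.5 dpc. Its 15.5 dpc samples were the closest together of all 10 genes, with a coefficient of variation of 19.2%, against 43.1% to 76.5% for the others. The log2 fold change of 2.45 (SE 0.16, adjusted p = 0.000355, edgeR) was the smallest of the 10 and had the smallest adjusted p.

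In the early secretory pathway, *Tmed6* (ENSMUSG00000031919, chr8:107061484-107065644, minus strand, 4 exons), a member of the p24 family of cargo receptors, had 416, 545 and 439.6 normalised counts at 13.5 dpc against 4008, 1630 and 2297 at 15.5 dpc. The rise on the log2 scale was 2.50 (SE 0.32, adjusted p = 0.00264, edgeR). *Erp27* (ENSMUSG00000030219, chr6:136907311-136922180, minus strand, 7 exons), a protein disulphide isomerase relative without a catalytic site that binds Pdia3, had 227, 234 and 215 normalised counts at the earlier stage and 3378, 1465 and 1808 at the later, without overlap. Its 13.5 dpc samples had the smallest coefficient of variation of the 10 genes, 4.33%. The stage difference on the log2 scale was 3.30 (SE 0.32, adjusted p = 0.000981, edgeR).

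**Figure D2:**
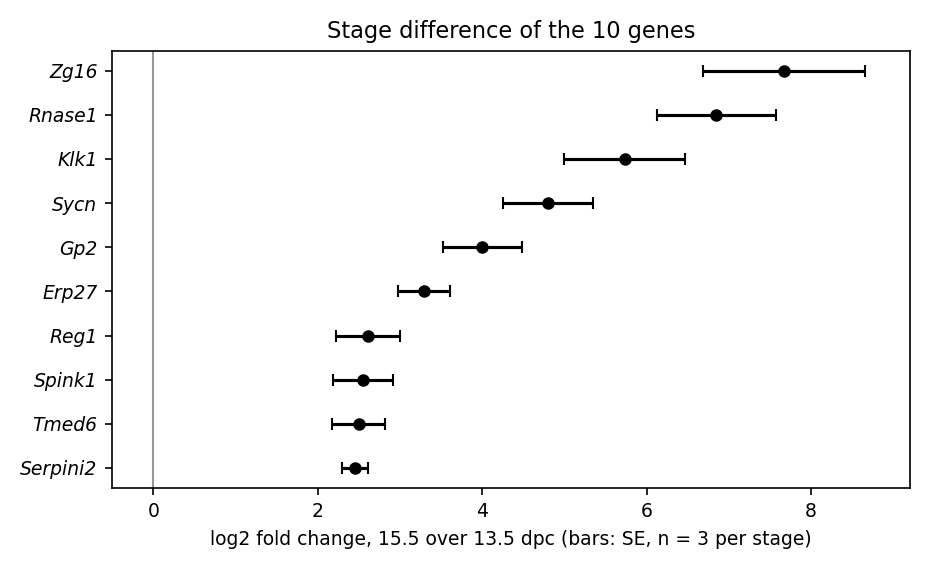
Log2 fold change of the 10 genes, 15.5 over 13.5 dpc (edgeR), with standard errors (n = 3 per stage). The values run from 2.45 for *Serpini2* to 7.67 for *Zg16*, and *Reg1*, *Spink1*, *Tmed6* and *Serpini2* lie within one another's errors.

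Per exon length, as RPKM (counts per kilobase of exon and 1000000 counts, mean ± SD, n = 3), the order at 13.5 dpc was *Spink1* at 191 ± 13.9, *Serpini2* at 51.5 ± 4.72, *Tmed6* at 42.8 ± 6.3, *Reg1* at 20.5 ± 1.42, *Erp27* at 5.98 ± 0.259 and *Sycn* at 5.16 ± 0.602. The other 4 were below 1 RPKM, from 0.455 for *Klk1* to 0.0676 for *Zg16*. At this stage the samples of *Serpini2* and *Tmed6*, *Erp27* and *Sycn*, *Klk1* and *Rnase1*, and *Gp2* and *Zg16* overlapped, and the other neighbours in the order did not. At 15.5 dpc *Spink1* was again first, at 1120 ± 618 RPKM, and *Serpini2* was at 282 ± 54.2. *Tmed6* was at 243 ± 112 and *Sycn* at 145 ± 104. *Reg1* was at 125 ± 70.2, *Erp27* at 58.9 ± 27.1 and *Rnase1* at 52.8 ± 39. *Klk1* was at 25.7 ± 19.7, *Zg16* at 17.2 ± 13 and *Gp2* at 1.51 ± 0.649. All neighbours from *Serpini2* down to *Zg16* overlapped at this stage, so that only the first place of *Spink1* and the last of *Gp2* were clear of the spread between samples. Within each of the 3 samples, *Tmed6* was above *Sycn*, *Reg1* above *Erp27*, *Rnase1* above *Klk1* and *Klk1* above *Zg16*. *Serpini2* was above *Tmed6*, *Sycn* above *Reg1* and *Erp27* above *Rnase1* in 2 samples each. *Sycn* moved from the sixth place to the fourth, *Zg16* from the last place to the ninth.

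The 15.5 dpc samples had the same order in all 10 genes, with sample 1 above sample 3 above sample 2. This order held for 35.8% of the genes tested and for 19 of the 20 digestive enzyme genes tested. The ratio of sample 1 to sample 2 ranged from 1.45 (*Serpini2*) to 4.59 (*Klk1*), with a median of 2.98, against 2.41 for the digestive enzyme genes and 0.995 for all genes tested. All 10 genes were shorter in exon than the median gene tested (3470.5 bases), with a median of 869.5 bases. Across the 10 genes the ratio ran against exon length (Spearman rho = -0.50, 10 genes from the same 2 libraries), with *Erp27*, the longest at 2981 bases, at 2.31. With the trend of each library with exon length removed, all 10 genes were still called higher and their median log2 fold change was 3.56. Without 15.5 dpc sample 1 all 10 were called as well, with a median of 3.25.

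**Figure D3:**
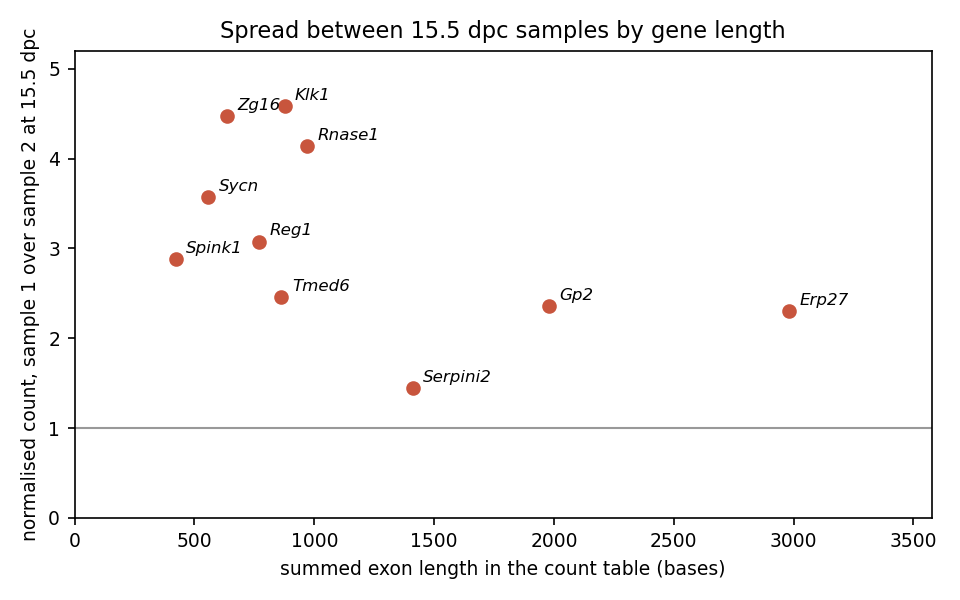
Ratio of normalised counts of sample 1 to sample 2 at 15.5 dpc against the summed exon length of each of the 10 genes. The grey line marks equal counts; all 10 genes lie above it, from 1.45 to 4.59.

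Summed, the 10 genes took 0.0229, 0.0263 and 0.0244% of all counts in samples 1, 2 and 3 of 13.5 dpc and 0.194, 0.0965 and 0.123% at 15.5 dpc. The stage means were 0.0245 ± 0.00173% and 0.138 ± 0.0506% (SD, n = 3), a ratio of 5.62 (two-sided exact permutation test over samples, p = 0.1, which 3 against 3 cannot go below). *Spink1* held 35.4 ± 0.812% of this sum at 13.5 dpc and 30.2 ± 3.03% at 15.5 dpc, and *Serpini2* 31.9 ± 2.09% and 28.2 ± 6.68%. The share of *Rnase1* in the sum went from 0.186% to 3.09%, that of *Sycn* from 1.27% to 4.94% and that of *Erp27* from 7.84% to 11.5%. The share of *Reg1* in the sum, at 6.93 ± 0.732% and 6.12 ± 0.826%, overlapped between stages, as did that of *Serpini2*.

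The digestive enzyme list itself (21 genes, with *Ctrb1*, *Pnliprp1* and *Cpa1* the most abundant) took 0.934 ± 0.0838% of all counts at 13.5 dpc and 7.3 ± 2.32% at 15.5 dpc. For every 100 counts of these enzymes, the 10 genes had 2.71, 2.78 and 2.42 counts at 13.5 dpc against 1.99, 1.87 and 1.77 at 15.5 dpc. The samples did not overlap, nor did those of 99.3% of the genes tested, which were lower relative to the enzyme sum. The difference of the means was -0.761 counts (exact permutation p = 0.1, again the smallest possible). This rested on *Ctrb1*: without it in the enzyme sum the samples overlapped, at 3.51 to 4.0 counts per 100 enzyme counts at 13.5 dpc and 3.04 to 3.86 at 15.5 dpc (exact permutation p = 0.2). With each gene weighing equally the mean log2 difference was 0.29, in the opposite direction (exact permutation p = 0.2). Among the 15.5 dpc samples, the ratio to the enzymes ran from 1.77 to 1.99, a narrower range than that of the share of the library, and was again highest in sample 1.

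**Figure D4:**
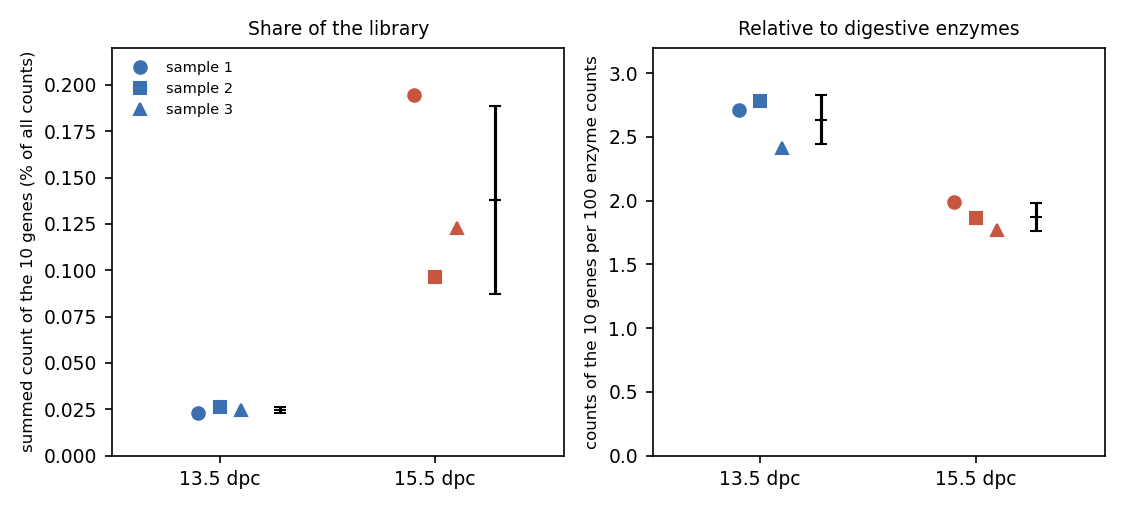
Left, summed count of the 10 genes as a percentage of all counts; right, their summed count per 100 counts of the digestive enzyme list. Symbols are samples (colour gives the stage), black bars mean and SD (n = 3); the share is higher at 15.5 dpc in all samples, whereas the ratio to the enzymes is lower, which without *Ctrb1* in the enzyme sum ends in overlapping samples and with each gene weighing equally turns direction.

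Relative to the enzyme sum with *Ctrb1* in it, the 10 genes fell into 3 groups, which in part rested on that enzyme. *Zg16*, *Gp2*, *Sycn*, *Rnase1* and *Klk1* were higher in each 15.5 dpc sample than in each 13.5 dpc sample, as were 0.282% of the genes tested, a share that supports nothing for *Zg16*, *Gp2*, *Rnase1* and *Klk1*, which passed the low-count filter through their 15.5 dpc counts. *Rnase1* had 0.368, 0.618 and 0.483 counts per 10000 enzyme counts at 13.5 dpc and 8.14, 4.35 and 5.04 at 15.5 dpc, and *Sycn* had 3.58, 2.94 and 3.44, then 12.8, 7.91 and 7.38. *Reg1*, *Spink1*, *Tmed6* and *Serpini2* were lower without overlap, as were 99.3% of the genes tested, so that being lower on this ratio is no result about these 4 genes. *Spink1* had 97.5, 99.6 and 83.3 counts per 10000 enzyme counts at 13.5 dpc and 66.2, 50.9 and 53 at 15.5 dpc, and *Serpini2* had 83.2, 85.4 and 82.9, then 41.7, 63.8 and 52. *Erp27* had a mean ratio of 20.7 at 13.5 dpc and 21.6 at 15.5 dpc, with overlapping samples of 22.9, 21.1 and 18.1 at the earlier stage and 23.1, 22.2 and 19.6 at the later. Without *Ctrb1* in the enzyme sum, a setting chosen after the data were seen, the 5 higher genes were again higher without overlap (0.372% of the genes tested), and *Tmed6* and *Serpini2* again lower (99.1%). *Spink1* then overlapped between stages, at 141, 143 and 121 counts per 10000 against 129, 87.4 and 91.1, as did *Reg1*, at 30.4, 26.6 and 22.4 against 26.2, 16.6 and 19.4. *Erp27* was then higher without overlap, at 33.1, 30.4 and 26.3 against 44.9, 38.1 and 33.7. For each gene without overlap the exact two-sided permutation p was 0.1 in either setting, again the lowest the design can give.

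Of the enzyme list, 20 of 20 genes tested were called higher, with a median log2 fold change of 3.57, and 18 to 20 of the 20 or 21 then tested were called when one sample was left out. The trypsinogen gene *Try4* was highest of the enzymes tested, at 6.60 (adjusted p = 0.0015, edgeR) and 5.84 without 15.5 dpc sample 1, and of the 10 genes described here *Zg16* and *Rnase1* had higher values. *Try4* had 5, 3 and 6 counts at 13.5 dpc and, like *Zg16* and *Rnase1*, passed the low-count filter through its 15.5 dpc counts. Of the 6 acinar transcription factors, 4 were called higher, *Bhlha15* at 2.23 (adjusted p = 0.000309, edgeR), *Rbpjl* at 2.08 (adjusted p = 0.000323, edgeR), *Ptf1a* at 2.07 (adjusted p = 0.00101, edgeR) and *Gata4* at 1.15 (adjusted p = 0.000907, edgeR). *Nr5a2* had a value of 0.03 (adjusted p = 0.955, edgeR), with a sign that turned under other normalisations, and *Gata6* of -0.21 (adjusted p = 0.246, edgeR), both above the threshold.

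Of 17 genes of the granule exocytosis machinery, 6 were called higher and 2 lower, with a median log2 fold change of 0.31. Without any one 13.5 dpc sample or without 15.5 dpc sample 3, 5 were called higher and 0 lower, and without 15.5 dpc sample 2, 9 and 4. With library size alone 6 were called higher and 4 lower, and with the length trend removed 8 and 4. *Rab3d*, a small GTPase of the zymogen granule surface, was highest at 1.94 (adjusted p = 0.000374, edgeR), with 883, 963 and 1279 counts at 13.5 dpc against 2695, 2732 and 2593 at 15.5 dpc. The other genes called higher were the GTPase genes *Rab27a* and *Rab27b*, the Rab27 effectors *Sytl1* and *Sytl4*, and *Stxbp2*, a partner of syntaxins. *Stx2*, a syntaxin, and *Syt1*, the calcium sensor of neurons, were called lower. *Stx2* was at -0.36 (adjusted p = 0.0423, edgeR). It was not called without the low-count filter or with the replicate block. Nor was it called without any one 13.5 dpc sample or without 15.5 dpc sample 3. *Syt1* was at -1.49 (adjusted p = 0.0313, edgeR), with 6, 27 and 9 counts at 15.5 dpc, and passed the low-count filter through its 13.5 dpc counts. The call of *Syt1* was lost when any one sample of 13.5 dpc or sample 3 of 15.5 dpc was left out (log2 fold change -1.61 to -1.30 in these fits). Its value was -2.22 (adjusted p = 0.00114, edgeR) without 15.5 dpc sample 2.

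Of the Gp2 relatives, *Dmbt1*, a scavenger receptor-like secreted glycoprotein, was called higher at 5.31 (adjusted p = 0.00175, edgeR), with 1, 2 and 1 counts at 13.5 dpc against 46, 57 and 18 at 15.5 dpc. *Dmbt1* passed the low-count filter through its 15.5 dpc counts. *Cuzd1*, another granule membrane protein gene, was too low for the test, with 0, 0 and 1 counts at the earlier stage and 23, 8 and 14 at the later. *Umod*, the kidney relative of *Gp2*, had 1 count in all. Of the lectins, 4 of 5 genes tested were called higher, from *Lman2* at 0.52 (adjusted p = 0.0131, edgeR) to *Lgals2* at 1.69 (adjusted p = 0.00421, edgeR), with *Lman1* at 0.61 (adjusted p = 0.00287, edgeR) and *Lgals3* at 0.86 (adjusted p = 0.0397, edgeR) between them. *Lgals4* had a value of 0.60 (adjusted p = 0.0727, edgeR). The calls of *Lman2* and *Lgals3* were lost when any one 13.5 dpc sample or 15.5 dpc sample 3 was left out, with log2 fold changes of 0.48 to 0.54 and 0.74 to 0.95, and that of *Lgals3* also with library size alone (0.63).

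Of the Reg family besides *Reg1*, *Reg3d* alone passed the filter, with 3, 5 and 3 counts at 13.5 dpc against 64, 35 and 36 at 15.5 dpc and a log2 fold change of 4.15 (adjusted p = 0.00215, edgeR). It passed through its 15.5 dpc counts. *Reg2*, *Reg3a*, *Reg3b* and *Reg4* had at most 3 counts in any sample, and *Reg3g* had 0, 0 and 2 at the earlier stage and 14, 2 and 8 at the later. Of the 19 other RNase A family genes listed, *Rnase4* and *Ang* (angiogenin) were tested and both were called higher, at 1.41 (adjusted p = 0.00218, edgeR) and 2.01 (adjusted p = 0.00262, edgeR). The other 17 had at most 8 counts in any sample.

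Of the kallikrein family, 6 of 25 genes were tested, and the direction differed between them. Without the filter on low counts 22 were tested, of which 6 were called higher and 2 lower, against 3 and 2 of 22 with DESeq2. With at least 10 counts in every sample *Klk8* alone was tested, and it was not called. *Klk1b3* and *Klk1b8* were called higher, at 3.76 (adjusted p = 0.00233, edgeR) and 3.42 (adjusted p = 0.00365, edgeR), and *Klk13* and *Klk14* were called lower (1 gene lower without 13.5 dpc sample 1, 4 without 15.5 dpc sample 1), at -1.83 (adjusted p = 0.00784, edgeR) and -1.59 (adjusted p = 0.0104, edgeR). *Klk8* and *Klk10* had values of -0.68 (adjusted p = 0.0803, edgeR) and -0.77 (adjusted p = 0.297, edgeR). The genes called each passed the filter through the stage where they were higher. This was 15.5 dpc for *Klk1b3* and *Klk1b8* and 13.5 dpc for *Klk13* and *Klk14*, so the calls are no result about the family. In the Spink family, *Spink4* was the only relative of *Spink1* tested and had a value of 0.45 (adjusted p = 0.204, edgeR), with 20 to 24 counts in every sample. Of 14 serpin genes tested, 4 were called higher and 4 lower, from *Serpina1a* (alpha-1-antitrypsin) at -2.38 (adjusted p = 0.00155, edgeR) to *Serpinf2* (alpha-2-antiplasmin) at 1.91 (adjusted p = 0.00255, edgeR). Their median log2 fold change was -0.21, and *Serpini2*, at 2.45, lay above all 14. Without any one 13.5 dpc sample or without 15.5 dpc sample 3, 3 serpin genes were called higher and 2 lower, and with library size alone 4 and 7.

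Of the 10 other p24 family genes, 6 were called higher, with a median log2 fold change of 0.37, but 3 without any one 13.5 dpc sample. *Tmed11* was highest, at 3.84 (adjusted p = 0.00729, edgeR) and 5.08 without 13.5 dpc sample 2, with 2, 8 and 1 counts at 13.5 dpc against 46, 22 and 41 at 15.5 dpc, and *Tmed8* lowest, at -0.13 (adjusted p = 0.71, edgeR), with a sign that turned in other settings. Of the 16 protein disulphide isomerase and related oxidoreductase genes, 10 were called higher, with a median of 0.60, but 6 without any one 13.5 dpc sample. *Pdia2*, the pancreatic isomerase, was highest at 6.01 (adjusted p = 0.00149, edgeR) and 5.33 without 15.5 dpc sample 1, with 9, 5 and 7 counts at 13.5 dpc against 484, 169 and 241 at 15.5 dpc. Both *Tmed11* and *Pdia2* passed the low-count filter through their 15.5 dpc counts. With at least 10 counts asked for in every sample neither was tested. *Tmx3* was lowest, at -0.08 (adjusted p = 0.604, edgeR), and turned sign with the length trend removed. *Tmed6* and *Erp27* each lay above all but one of the other genes of their family, *Tmed11* and *Pdia2*.

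**Figure D5:**
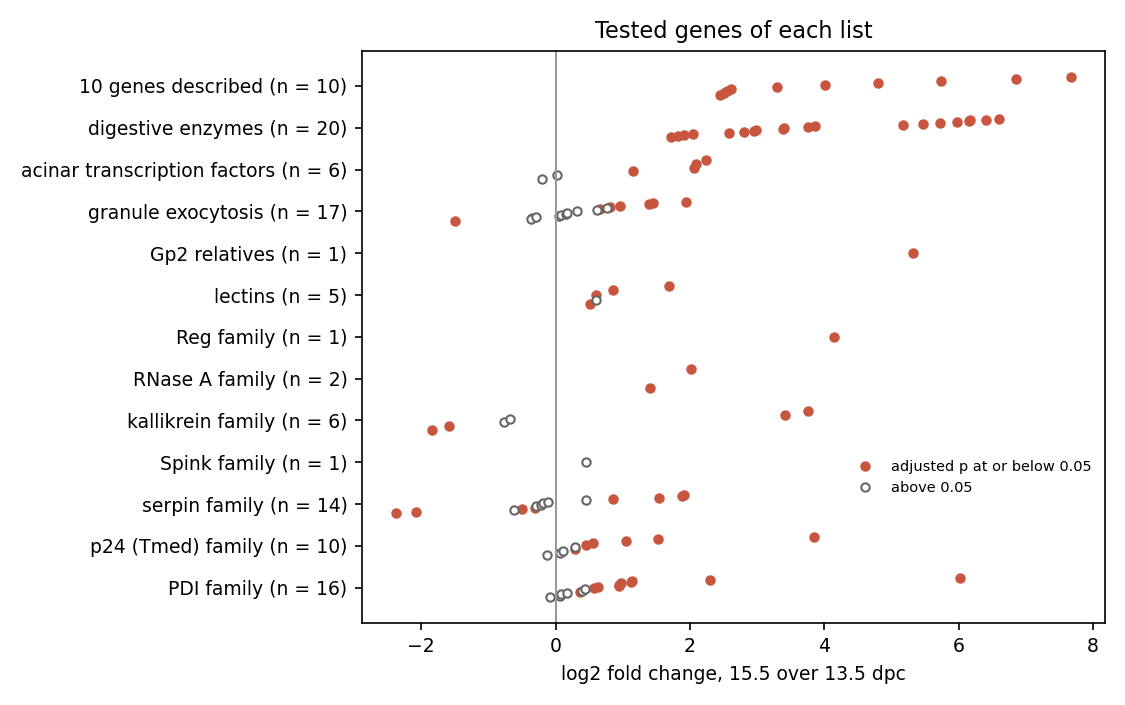
Log2 fold change, 15.5 over 13.5 dpc, of each tested gene of the 10 genes described and of the lists of related genes (number tested in brackets). Filled points have an adjusted p at or below 0.05 (edgeR), open points above it. The 10 genes and the tested enzymes lie wholly to the right, while the kallikrein and serpin families spread to both sides of 0.

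The 3 genes with the nearest profile to each of the 10 were found by the root mean square difference of log2 CPM (counts scaled to a common library size), centred per gene, over the 6 samples. Such profiles rest mainly on the stage difference and on the shared libraries. Of the 30 places, 8 were held by genes of the digestive enzyme list and 4 by others of the 10. Nearest to *Zg16* were *Try4* (0.145), *Pdia2* and *Amy2-ps1*, and nearest to *Gp2* were *Trbc2* (0.0882), *Clps* and *Fkbp11*. *Sycn* was nearest to *Try5* (0.281), *Gm10334* and *Amy2b*, *Rnase1* to *Cela3b* (0.144), *Prss1* and *Cpb1*, and *Klk1* to *Try5* (0.143), *Try10* and *Gm10334*. *Reg1* was nearest to *Spink1* (0.0900), *Sdf2l1* and *Mt1*, *Spink1* to *Reg1*, *Tmed6* (0.0914) and *Tdh*, and *Tmed6* to *Tdh* (0.0633), *Tspan1* and *Spink1*. *Erp27* was nearest to *Klk1b3* (0.087), *Clps* and *Fkbp11*. *Serpini2* had the closest neighbours of all, *Cbs* (0.0404), *Rap1gap* and *Gstm1*. The genes of the trypsinogen and amylase clusters share sequence, and their counts are uncertain.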

How the data were processed

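RNA of 6 samples, 3 of wt pancreas at 13.5 dpc and 3 at 15.5 dpc, was analysed. Total RNA with an integrity number of at least 8 was enriched for poly(A) RNA and made into strand-specific libraries, read from a single end. The authors used GSNAP to align reads to mm10, counted those that aligned uniquely on Ensembl 69 genes with featureCounts 1.4.6, and the raw counts they deposited were the start of the analysis. Reads shared by near-identical genes are therefore lost, which lowers such counts. The table holds 37224 identifiers, of which 35449 matched a symbol in GENCODE vM21.

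The tools were edgeR 4.0.16 in R 4.3.3 and SciPy 1.17.1 and matplotlib 3.10.9 in Python 3.11.15. Genes were filtered with filterByExpr, scaled with TMM factors (0.847 to 1.08) and tested between stages with the quasi-likelihood test without covariates, with Benjamini-Hochberg adjustment. The study's methods used DESeq2, run here (1.42.0) as an alternative. Standard errors were taken from the fold change and the square root of its F value. RPKM used the exon length of the table. The steps were tested on simulated data, where 89 of 100 genes changed 2-fold and 100 of 100 changed 4-fold were recovered, with 8 false calls. The simulated samples had the same relative spread for all genes and no trend with exon length. The simulation therefore says nothing about calls under the sample differences described above. No exon of the 10 genes overlapped another gene on either strand. Depth sets the precision of low genes, for which counting intervals are given.

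The named genes were the 10 in full, the tested genes with the highest and lowest change of each list, all tested genes of lists of up to 6, and the 3 nearest profiles of each of the 10. The result of one gene is not reported here. Further relatives named with their counts, the most abundant enzymes and the exocytosis genes called were chosen after their values were seen. The 10 genes and the lists were chosen with earlier results of these data known. The alternatives were other scalings, DESeq2, other filters and thresholds, the replicate number as a block, removal of a lowess trend (span 0.5) with exon length, and each sample left out in turn.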

Additional observations from a re-analysis of the deposited data

How the results depend on the processing

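All 10 genes were called higher in each of the 146 fits of single genes with other scalings, filters, tests or samples in which they were tested, and 9 of them by the thresholds of the study, *Gp2* being below the level asked for. With at least 10 counts asked for in every sample, *Zg16*, *Gp2*, *Rnase1* and *Klk1* were not tested, and the 6 genes left were all called with a median log2 fold change of 2.56. Over the fits without one sample the median of the 10 was 3.25 to 3.91, and each of these fits called all 10. The summed share of counts differed by 0.113 percentage points between stages, 0.0794 without *Spink1*, 0.129 with effective library sizes and 0.0851 to 0.134 without one sample.

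Over all genes, the number called higher (1805) was 1133 with library size alone, 2812 with the length trend removed, 2738 at an adjusted p at or below 0.1, 907 by the thresholds of the study and 716 to 3924 without one sample. The number called lower (1662) was 2952 with library size alone, 2565 at 0.1, 547 by the study's thresholds and 519 to 3696 without one sample. Library size alone moved the median of all genes to -0.22 and the share of higher calls from 52.1% to 27.7%. The replicate numbers did not pair the samples (correlations of deviations 0.22, -0.22 and 0.04). With the replicate block 1426 genes were higher, 1250 lower, and all 10 genes described were called.

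The log2 ratio of the 10 genes to the enzymes differed between stages by -0.49, by -0.18 without *Ctrb1* and by 0.29 with each gene weighing equally, and by -0.55 to -0.45 without one sample. Among the other named genes, *Nr5a2*, at 0.03, was -0.002 with upper quartile factors, -0.15 with library size alone, -0.072 with the replicate block, and -0.32 to 0.32 without one sample. *Tmed8*, at -0.13, was 0.048 with the length trend removed and -0.42 to 0.089 without one sample, and *Tmx3*, at -0.08, was 0.017 with the length trend removed. The cause was not tested.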

Other observations

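One tested gene of the digestive enzyme list, chosen after its values were seen, broke the order that the 10 genes and the other 19 tested enzymes had among the 15.5 dpc samples. *Ctrc*, which encodes chymotrypsin C, had 77.5, 795 and 55.4 normalised counts in samples 1, 2 and 3, where sample 2 was the lowest for the others, and 3.64, 2.57 and 7.9 at 13.5 dpc. Its log2 fold change was 5.97 (adjusted p = 0.0202, edgeR), and 3.74 (adjusted p = 0.000204, edgeR) without 15.5 dpc sample 2. *Ctrc* had 4, 3 and 11 counts at 13.5 dpc and passed the low-count filter through its 15.5 dpc counts. The call was lost when any one 13.5 dpc sample was left out (5.68 to 6.60, adjusted p = 0.0819 to 0.0846, edgeR), and DESeq2 gave 6.03 with no adjusted p. What sets sample 2 apart for this gene was not tested.

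Of the 9 intestine markers, *Agr2*, a protein disulphide isomerase relative of mucous cells, had 5, 3 and 3 counts at 13.5 dpc against 73, 33 and 29 at 15.5 dpc, a log2 fold change of 4.16 (adjusted p = 0.00477, edgeR), while *Cdx1*, *Cdx2*, *Muc2*, *Fabp1* and *Fabp2* had at most 6 counts in any sample. The stomach marker *Tff2*, a trefoil peptide, had 8, 3 and 10 counts at the earlier stage and 203, 79 and 77 at the later, and *Gkn2*, another stomach gene, 10, 4 and 7 at 13.5 dpc and 0 in all 15.5 dpc samples. These genes too were chosen after their values were seen.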
